A study of Mus musculus with 15 samples.

Results

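TRBV13 receptors with serine at position 4 of the third complementarity-determining region (CDR3) were examined in T-cell receptor beta chain (TCRβ) repertoires of NOD (non-obese diabetic) mice, which develop diabetes spontaneously through autoimmune loss of beta cells. The receptors were chosen by their V family and by a CDR3 that starts with the residues CASS. This rule does not use their abundance, but it was set with earlier results of these data known. The rule found 11053 of 59364 clonotypes (18.6%), 1486 of them in cells that bound a tetramer of the beta-cell autoantigen IGRP (TET) and 9567 in CD8+CD44+ cells that did not bind it (CD8). A clonotype is a distinct nucleotide CDR3 with its V family and J cluster, and the 11053 clonotypes encoded 9017 distinct receptors (V family, J cluster and amino acid CDR3). They made up 51.8% of all TRBV13 clonotypes, and 35.2% of TRBV13 clonotypes had glycine in place of serine at position 4 (start CASG).

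The 15 libraries came from pooled spleen and non-draining lymph nodes of mice aged 125 days. The groups were wild type NOD TET (WT TET, n = 3), Ifngr-1-mutant NOD TET (mutant TET, n = 4), wild type NOD CD8 (WT CD8, n = 4) and Ifngr-1-mutant NOD CD8 (mutant CD8, n = 4). Ifngr1 codes for the ligand-binding chain of the receptor for interferon-γ, and no other allele or treatment is given for either strain. The TET library of the fourth wild type mouse was not analysed here. Because the mutation is not described as limited to a cell type, these groups do not separate T cells that lack the receptor from other cells that lack it. The tables hold receptor sequences only, so the sorted cell types could not be checked against marker genes.

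CDR3 is the part of the TCRβ chain that meets the bound peptide most directly. Its first residues are encoded by the V segment, its last by the J segment, and those between by the D segment and by nucleotides that are added or trimmed at random during joining. In the mouse, the CDR3 part of the TRBV13-1 and TRBV13-3 segments starts with CASS and that of TRBV13-2 with CASG. The serine start thus mostly marks the first pair, although the tables name only the family. The V segment was matched to a mean of 13.9 to 15.1 CDR3 nucleotides in TET libraries and 14.1 to 14.3 in CD8 libraries. The match thus reached, on average, into the codon of position 5. The V references of the tables had 2 lengths, and the longer was assigned to 11038 of the 11053 serine clonotypes but to 3336 of the 7512 CASG clonotypes. Receptors of the TRBV13 family are known for their use by CD8 T cells that recognise IGRP in NOD mice.

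The nucleotides behind the start were nearly uniform. They are printed from the deposited tables, 5′ to 3′, with the codon of position 4 in capitals; the first was carried by 10269 clonotypes (92.9%) and the second by 652 (5.90%).
Start with codon AGT: tgtgccagcAGT
Start with codon AGC: tgtgccagcAGC

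The CDR3 sequences of the 10 receptors with the highest mean share of TET counts, and of the largest receptor of WT TET 3, are shown. The count-weighted results on length, J segment and following residues depend in part on them. Each is the nucleotide version with the most TET counts, apart from the second, which is the version of its receptor found in the most libraries, with the codons of positions 4 and 5 in capitals.
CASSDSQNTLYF, version in 2 libraries: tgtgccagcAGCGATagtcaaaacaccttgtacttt
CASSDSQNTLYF, version in 6 libraries: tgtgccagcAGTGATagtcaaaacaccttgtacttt
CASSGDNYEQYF: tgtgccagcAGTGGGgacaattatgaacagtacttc
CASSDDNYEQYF: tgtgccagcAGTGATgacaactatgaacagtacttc
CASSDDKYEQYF: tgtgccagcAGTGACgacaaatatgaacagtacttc
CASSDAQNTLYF: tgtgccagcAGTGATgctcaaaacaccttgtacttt
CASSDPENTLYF: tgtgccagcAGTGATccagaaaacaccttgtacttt
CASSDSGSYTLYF: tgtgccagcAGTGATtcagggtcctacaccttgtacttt
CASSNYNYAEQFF: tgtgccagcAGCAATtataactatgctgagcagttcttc
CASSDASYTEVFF: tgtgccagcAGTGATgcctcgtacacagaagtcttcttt
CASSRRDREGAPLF: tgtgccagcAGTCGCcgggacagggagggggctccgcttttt
15-residue receptor with a TRBJ2-2 end: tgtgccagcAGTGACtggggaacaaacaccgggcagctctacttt

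Depth differed between the groups. Total counts per library were 2536 to 14958 in WT TET, 17294 to 60164 in mutant TET, 17116 to 27836 in WT CD8 and 20909 to 32856 in mutant CD8, and clonotypes numbered 97 to 126, 393 to 2199, 2040 to 8596 and 4502 to 9827. The serine clonotypes numbered 34 to 47 per WT TET library, 118 to 568 per mutant TET library and 394 to 1767 per CD8 library. For a clonotype not seen, 3 counts give an upper limit of 0.118% in the shallowest library and 0.00499% in the deepest (counting error only). One pair of libraries stood apart: WT TET 2 and mutant TET 4, of different strains, shared 13 serine clonotypes, 27.7% of the 47 in the first and 11.02% of the 118 in the second. These 13 held 30.9% of the serine counts of WT TET 2 and 92.6% of those of mutant TET 4. The other pairs across the strains shared 1 to 5. Differences between TET and CD8 in the serine shares and in count-weighted length are given with and without the pair. Most other results are given only with it.

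Whether receptors of this kind were enriched by the tetramer was examined by their share of each repertoire. They were more frequent in TET than in CD8 libraries of both strains, by clonotypes and by counts, and no TET library overlapped with a CD8 library. They made up 35.3, 37.3 and 35.1% of the clonotypes of the WT TET libraries. In mutant TET they made up 25.5, 25.8, 26.3 and 30.03%. The WT CD8 libraries held 19.3, 19.5, 17.1 and 17.4%, and the mutant CD8 libraries 17.5, 17.9, 17.1 and 17.98%. The difference was 13.4 percentage points averaged over strains (17.5 in WT and 9.29 in mutant mice; two-sided exact permutation p = 0.000408, the smallest that 2450 assignments allow, Benjamini-Hochberg adjusted p = 0.00299 over the 22 exact tests). Without WT TET 2 and mutant TET 4 it was 12.5 points (exact permutation p = 0.0019). This test reassigns libraries within a strain and does not use the pairing of the TET and CD8 libraries of a mouse. With the mouse as a block, the difference was 12.7 points (exact sign-flip permutation p = 0.0156, the smallest that 7 pairs allow), and TET was higher in 7 of 7 mice.

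The counts leaned further towards these receptors than the clonotypes did. They held 61.8, 74.6 and 54.1% of all counts in WT TET and 55.4, 61.5, 55.7 and 80.2% in mutant TET. The shares were 27.5, 30.1, 24.4 and 25.4% for WT CD8 and 24.7, 26.0, 22.5 and 24.9% for mutant CD8. The difference was 37.7 percentage points (exact permutation p = 0.000408, adjusted p = 0.00299) and 32.1 points without the pair. A larger count share can come from more cells or from more receptor RNA per cell, which cannot be told apart here.

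The serine start was also more frequent within the TRBV13 family, so its higher share was not only that of the whole family. Of TRBV13 clonotypes, 64.3, 56.6 and 64.2% carried it in WT TET and 56.8, 56.7, 57.7 and 64.1% in mutant TET. The CD8 libraries lay between 49.8 and 52.9%. The difference was 9.15 percentage points (exact permutation p = 0.000408, adjusted p = 0.00299), with no overlap, and 9.53 points without the pair.

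**Figure D1:**
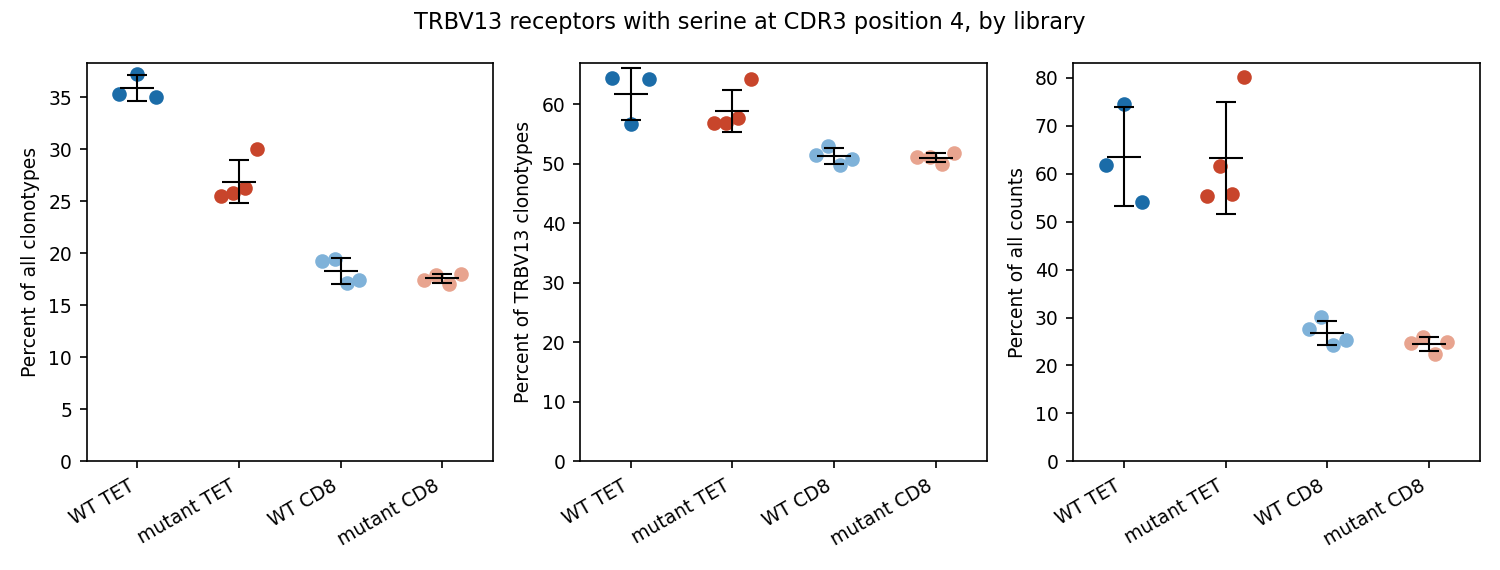
The panels show the percent of all clonotypes, of TRBV13 clonotypes and of all counts that were TRBV13 receptors with serine at CDR3 position 4, 1 point per library, with the mean and SD of WT TET (n = 3), mutant TET, WT CD8 and mutant CD8 (n = 4 each). Every TET point lies above every CD8 point in all panels, and the WT and mutant TET points separate in the first panel only.

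A table of V classes, in which TRBV13 was split by its CDR3 start, gave the same order. With edgeR's quasi-likelihood test, 15 of 21 classes (71.4%) differed between TET and CD8, 7 of them higher in TET. The serine class rose by 0.67 on the log2 scale (SE 0.08, edgeR adjusted p = 2.1e-12), against a background in which most classes were called. The CASG class had a log2 fold change of 0.02 (SE 0.09, edgeR adjusted p = 0.907). Its unweighted library means were 12.7 ± 0.453% of CD8 clonotypes (SD, n = 8) and 12.1 ± 2.52% of TET clonotypes (n = 7). In edgeR, libraries with more clonotypes weigh more, and most TET clonotypes came from mutant libraries. The fold changes between TET and CD8 therefore lean towards the mutant strain. By counts the CASG class held 17.6 ± 1.61% in CD8 and 10.5 ± 5.27% in TET. TRBV13 clonotypes with any other start rose by 0.63 (SE 0.12, edgeR adjusted p = 1.3e-06).

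Between the strains, the serine share of TET clonotypes was lower in every mutant library, while the share of counts overlapped. The share of clonotypes was 35.9 ± 1.24% in WT TET (SD, n = 3) and 26.9 ± 2.11% in mutant TET (n = 4), with no overlap. The difference of -8.97 percentage points had an exact permutation p of 0.0286, the smallest that 35 splits allow, and an adjusted p of 0.105, so it did not pass the correction. The share of counts was 63.5 ± 10.3% and 63.2 ± 11.7% (difference -0.331 points, exact permutation p = 0.914). Depth and clonotype number moved with this difference, and at an equal depth of 2536 counts it was -1.98 points (exact permutation p = 0.686). Without clonotypes of a single count, which were 5.56 to 20.6% of the serine clonotypes in WT TET and 17.6 to 30.5% in mutant TET, it was -6.75 points (exact permutation p = 0.171).

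Between the strains in TET, edgeR called 0 of 17 V classes (0%), against 4 at an unadjusted p under 0.05 and 2 called by DESeq2. The log2 fold change of the serine class was -0.46 (SE 0.16, edgeR adjusted p = 0.081), -0.79 with DESeq2 (adjusted p = 0.0014) and -0.47 without mutant TET 4 (edgeR adjusted p = 0.025). One class was called without mutant TET 4, and 1 without WT TET 3. In CD8 the class had 18.3 ± 1.24% in WT and 17.6 ± 0.422% in mutant libraries (exact permutation p = 0.343), and edgeR called 0 of 20 classes (0%; 0 with unadjusted p under 0.05; DESeq2 0). The share of TRBV13 clonotypes with the serine start was 61.7 ± 4.38% in WT TET and 58.8 ± 3.55% in mutant TET (exact permutation p = 0.400). Within CD8 it was 51.2 ± 1.33% in WT and 51.0 ± 0.775% in mutant libraries (exact permutation p = 0.857).

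The largest clonotypes took more of the serine counts in TET than in CD8. The 10 largest serine clonotypes took 67.6, 82.2 and 56.8% of the serine counts in WT TET and 52.2, 55.9, 59.4 and 83.7% in mutant TET. They took 4.43 to 12.7% in WT CD8 and 4.21 to 8.25% in mutant CD8. The single largest clonotype held 9.03 to 35.6% of the serine counts in TET libraries and 0.640 to 3.65% in CD8 libraries. Every TET library thus lay above every CD8 library by both measures. The TET libraries had far fewer serine clonotypes than the CD8 libraries, and the part of that number in these shares was not tested.

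**Figure D2:**
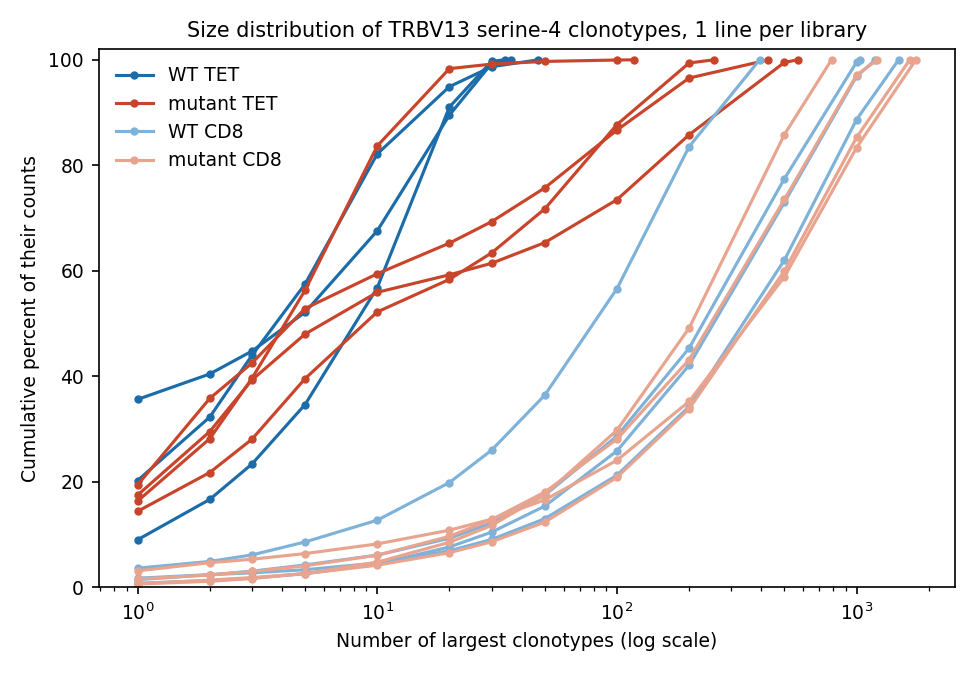
Cumulative percent of the serine receptors' counts (vertical axis) held by the given number of largest clonotypes (horizontal axis, log scale), 1 line per library of WT TET, mutant TET, WT CD8 and mutant CD8. At 10 clonotypes the TET lines are between 52.2 and 83.7% and the CD8 lines between 4.21 and 12.7%; WT CD8 1 is the highest CD8 line.

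The largest clonotype of each TET library encoded a receptor that was also found in another TET library. Sharing was counted at any level, so it includes low counts of receptors that are large in another library. Of 1262 distinct serine receptors in TET libraries, 144 were found in at least 2 of 7 libraries, 24 in at least 3, 7 in at least 4 and 3 in at least 5. None was found in all 7. The 3 most widespread were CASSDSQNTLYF and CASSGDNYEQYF in 6 TET libraries each and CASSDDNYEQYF in 5. In the CD8 libraries, 796 of 8104 receptors were found in at least 2 of 8 libraries, 3 in 6 and 0 in 7 or 8. Those 3, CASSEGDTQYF, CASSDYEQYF and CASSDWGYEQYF, were small there, with means of 0.0233, 0.0307 and 0.0214% of counts, and were found in 1, 1 and 0 TET libraries with 3 counts, 1 count and none.

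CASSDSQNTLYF had the highest mean share of TET counts, 8.08 ± 9.05% (SD, n = 7), against 0.0447 ± 0.0579% in CD8 (n = 8). Its length was 12 residues and its J end that of TRBJ2-4. It held 22.7 and 15.3% of the counts of WT TET 1 and 2 and 0 of 2536 counts in WT TET 3, which allows up to 0.118%. In mutant TET 1 to 4 it held 5.49, 0.0312, 0.0319 and 12.99%. The receptor was therefore large in 4 TET libraries, at trace level in 2 and unseen in 1, and it was found in both strains.

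This amino acid sequence was reached by 5 nucleotide versions in TET. The version with codons AGT and GAT, printed above as that in 6 libraries, had 4228 TET counts and 55 CD8 counts in 4 CD8 libraries. The version with codons AGC and GAT had 5656 TET counts, 146 of them in WT TET 2 and 5510 in mutant TET 4, the pair that shares clonotypes, and none in CD8. A version with another serine codon at position 6, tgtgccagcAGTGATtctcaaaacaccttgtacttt, had 1341 counts in WT TET 2 and 397 in mutant TET 1. Versions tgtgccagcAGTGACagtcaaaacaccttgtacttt and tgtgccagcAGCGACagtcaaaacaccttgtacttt had 542 counts in mutant TET 4 and 33 in WT TET 1. WT TET 1, WT TET 2, mutant TET 1 and mutant TET 4 each held 2 or 3 of the versions. Over all serine receptors, a receptor had 1.02 to 1.12 nucleotide versions per TET library and 1.02 to 1.07 per CD8 library.

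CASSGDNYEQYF, with the end of TRBJ2-7, had a mean of 4.41 ± 4.497% of TET counts. It held 1.04% in WT TET 2 and 2.33% in WT TET 3, was unseen in WT TET 1, and held 11.5, 7.92, 0.605 and 7.49% in mutant TET 1 to 4. In CD8 it was at 1.00% in WT CD8 1 and at 0 to 0.0639% in the other 7 libraries. It thus exceeded 7.4% in 3 mutant libraries and stayed below 2.4% in WT; the strain difference was not tested. The printed version was the 1 found in all 6 TET libraries that held the receptor, and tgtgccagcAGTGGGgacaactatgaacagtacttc was the larger version in mutant TET 1, with 1381 counts against 604.

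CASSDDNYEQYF and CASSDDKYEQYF, 12 residues long with the same TRBJ2-7 end, differ from each other by 1 residue. The first held 1.63% of WT TET 2 and 4.07, 0.575, 3.54 and 2.97% of mutant TET 1 to 4. The second was found in mutant TET 1, 3 and 4 at 2.01, 9.13 and 0.223% and in no WT TET library. CD8 levels of both were 0 to 0.193%. Both were therefore found in most mutant TET libraries and in at most 1 WT TET library, at WT depths that allow 0.0201 to 0.118% for an unseen receptor.

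Several receptors were large in 1 mouse and small or unseen elsewhere. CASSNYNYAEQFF was the largest of mutant TET 2 at 10.8% and lay between 0.0565 and 0.387% in the other mutant TET libraries. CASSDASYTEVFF was the largest of mutant TET 3 at 10.8% (10.4 to 11.2%, exact 95% binomial interval) and lay between 0.0535 and 0.141% in the other mutant TET libraries. Neither was seen in WT TET. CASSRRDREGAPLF, with 14 residues and a TRBJ1-5 end, was the largest clonotype of WT TET 2 at 15.1%, was at 2.98% in WT TET 1 and was not seen in the other 13 libraries. The 15-residue receptor with a TRBJ2-2 end was the largest of WT TET 3 at 4.89%, there in another nucleotide version than the one shown first, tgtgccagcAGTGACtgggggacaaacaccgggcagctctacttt. In all versions together it was also found in WT TET 2 (1.54%), mutant TET 1 (0.283%) and mutant TET 4 (2.18%).

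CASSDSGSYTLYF, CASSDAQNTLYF and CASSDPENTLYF depended on mutant TET 4. They held 13.1, 9.48 and 9.90% of its counts and 3.24, 2.39 and 1.71% of those of WT TET 2. Apart from these libraries, the first was found at 0.141% in WT TET 1 and 1.38% in WT TET 3, which made it the 1 receptor in all 3 WT TET libraries, and the others were in no further TET library. Their means over TET were 2.55, 1.70 and 1.66%, and 0.793, 0.399 and 0.285% without mutant TET 4. In mutant TET, 5 receptors were in all 4 libraries: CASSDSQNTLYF, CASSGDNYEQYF, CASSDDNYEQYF, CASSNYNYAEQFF and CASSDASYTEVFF. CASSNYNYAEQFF, in 1 nucleotide version, had 2416 counts in mutant TET 2 and 20, 85 and 34 in mutant TET 1, 3 and 4. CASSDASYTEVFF, also in 1 version, had 2376 in mutant TET 3 and 10, 12 and 85 in mutant TET 1, 2 and 4. Whether such low counts came from other libraries was not tested.

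Near neighbours of the 3 receptors with the highest TET means were counted as serine receptors of equal length and J cluster that differ by 1 residue. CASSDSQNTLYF had 0 or 1 neighbour in a TET library and 0 to 4 in a CD8 library, which held more serine receptors. As a share of a library's serine receptors, they were 0.794 ± 1.37% in WT TET and 0.283 ± 0.422% in mutant TET. The CD8 shares were 0.301 ± 0.326% (WT) and 0.205 ± 0.161% (mutant). The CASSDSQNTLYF neighbour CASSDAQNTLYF took 9.48% of mutant TET 4, and another, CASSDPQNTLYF, 0.874% of mutant TET 3. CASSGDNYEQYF had 0 to 3 neighbours in a TET library, which took 7.17% of the counts of WT TET 2, none of WT TET 1 and 3, and 1.23 to 6.60% of the mutant TET libraries, against at most 0.116% in CD8. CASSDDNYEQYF was among them. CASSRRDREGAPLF had no neighbour in any library.

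Overlap between the fractions of a mouse was small by number and variable by counts. The TET and CD8 libraries of WT mice 1 to 3 shared 2, 5 and 0 serine clonotypes, and those of mutant mice 1 to 4 shared 9, 19, 12 and 8. This was 0 to 10.6% of the TET and 0 to 1.56% of the CD8 clonotypes. The shared clonotypes held 39.3, 8.20 and 0% of the TET serine counts in WT and 10.2, 12.7, 37.0 and 35.1% in mutant mice. The share of TET clonotypes found in the mouse's own CD8 library was above the mean over all other CD8 libraries in 4 of 7 mice and below it in 3.

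CDR3 length passed between the fractions when weighted by counts and did not pass by clonotypes. The mean length of serine clonotypes was 13.6 ± 0.486 residues in WT TET, 13.8 ± 0.226 in mutant TET, 13.8 ± 0.104 in WT CD8 and 13.9 ± 0.0361 in mutant CD8. The difference between TET and CD8 was -0.14 residues (exact permutation p = 0.301, adjusted p = 0.602). Weighted by counts, the difference was -0.724 residues (exact permutation p = 0.00735, not among the adjusted tests), from 13.8 ± 0.124 in CD8 to 13.04 ± 0.570 in TET. WT TET 3 went against it, with 14.1 residues, above every CD8 library. Without WT TET 2 and mutant TET 4, the TET libraries with the lowest count-weighted lengths, the difference was -0.485 residues (exact permutation p = 0.0476, unadjusted). No strain comparison of length passed, in TET (0.134 residues, exact permutation p = 0.686) or CD8 (0.0566 residues, exact permutation p = 0.457).

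The shorter count-weighted length lay in receptors of 12 residues. They held 53.6, 63.7 and 24.0% of the serine counts in WT TET and 54.6, 36.4, 31.0 and 73.5% in mutant TET. In CD8 they held 10.5 to 17.99% in WT and 9.43 to 13.2% in mutant libraries. Every TET library was above every CD8 library. By clonotypes the share was 17.6 to 40.4% in WT TET, 10.7 to 19.5% in mutant TET and 8.88 to 15.7% in CD8, so only mutant TET overlapped with CD8. CDR3s of 14 residues, the most frequent length in CD8 at 31.6 ± 3.16% of the serine counts, held 16.8 ± 8.46% in TET. Those of 11 residues went against a general shift to short CDR3s. They held 0 to 2.25% of serine counts in TET and 3.65 to 5.42% in CD8, without overlap.

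**Figure D3:**
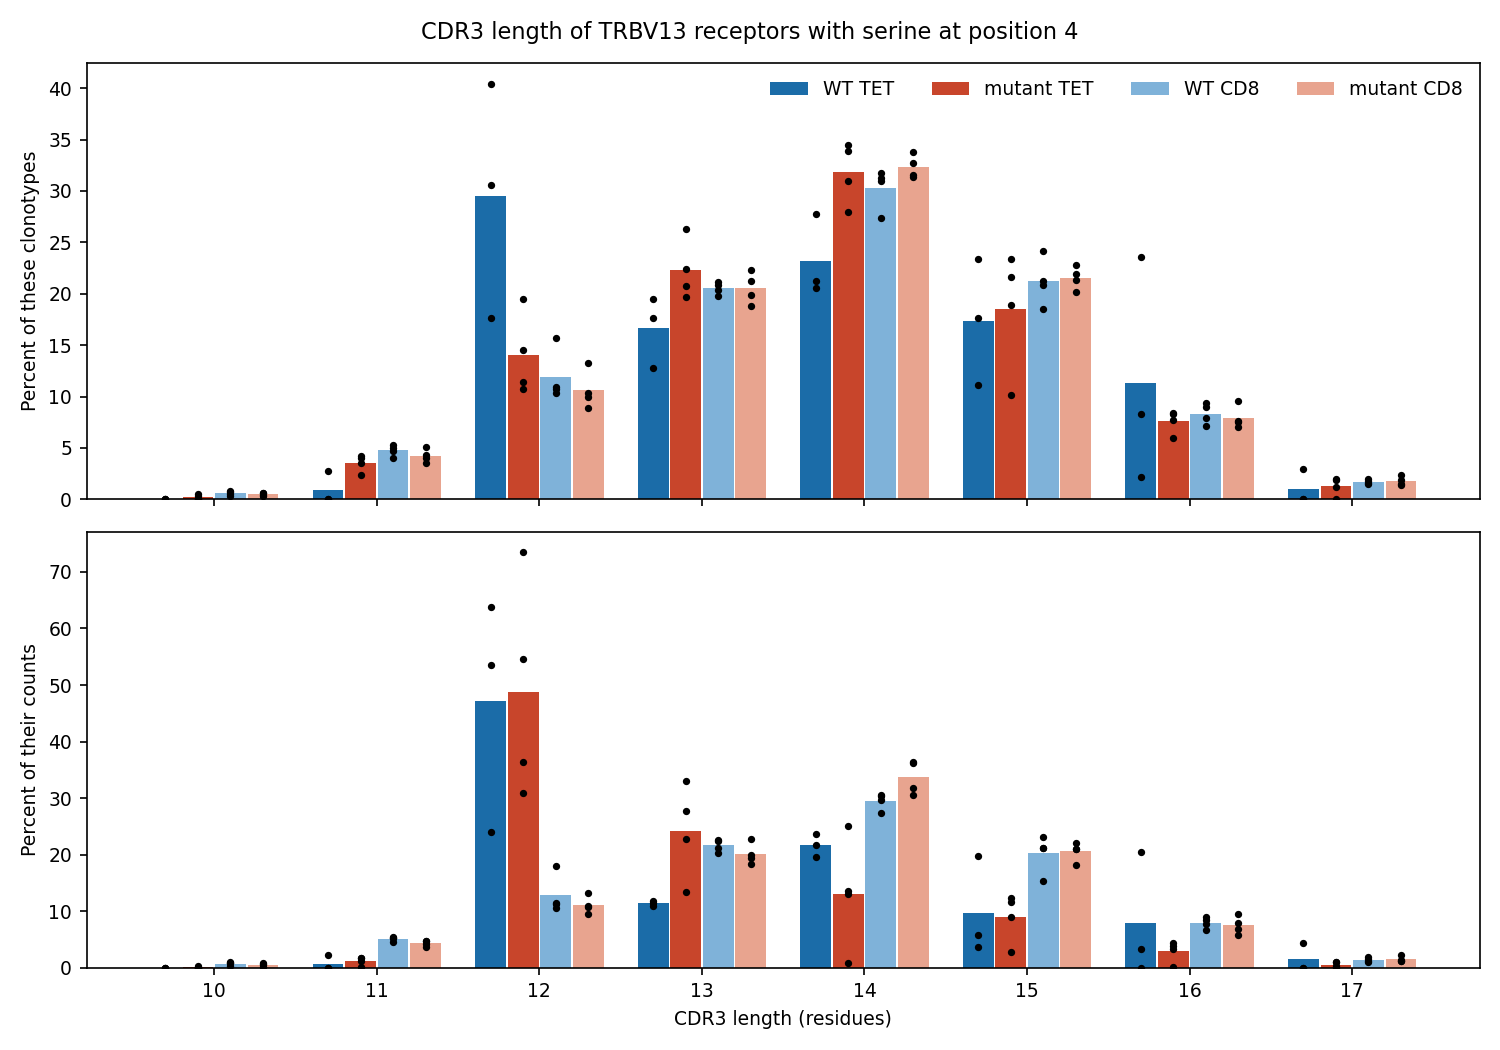
Percent of serine clonotypes (upper panel) and of their counts (lower panel) at each CDR3 length from 10 to 17 residues; bars are group means and points are libraries of WT TET (n = 3), mutant TET, WT CD8 and mutant CD8 (n = 4 each). By counts, the bars at 12 residues stand at 47.1% in WT TET and 48.9% in mutant TET against 12.8% and 11.1% in CD8.

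J use was compared by cluster and by the last residues of the CDR3. The TRBJ1 cluster made up 44.4, 29.8 and 23.5% of serine clonotypes in WT TET and 48.8, 50.2, 49.0 and 33.9% in mutant TET. CD8 libraries lay between 27.9 and 37.9%. Mutant TET 1 to 3 were thus above all WT TET and CD8 libraries, and mutant TET 4 was not. Neither the difference between fractions (5.33 points, exact permutation p = 0.183) nor that between strains in TET (12.9 points, exact permutation p = 0.171) passed, nor that in CD8 (-0.709 points, exact permutation p = 0.857). Without WT TET 3 the first was 7.60 points (exact permutation p = 0.04), and by counts it was -8.10 points (exact permutation p = 0.200).

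The 11 J ends with enough clonotypes covered 10789 serine clonotypes (97.6%). With edgeR, 6 of 11 ends (54.5%) differed between TET and CD8, 3 in each direction. Ends of TRBJ1-5 (log2 fold change 1.09, SE 0.24, edgeR adjusted p = 0.00064), TRBJ1-2 (0.83, SE 0.14, 1.8e-05) and TRBJ1-4 (0.62, SE 0.17, 0.004) were higher in TET by clonotypes. By counts, TRBJ1-2 held 3.72 ± 3.34% in TET and 4.25 ± 0.769% in CD8, and TRBJ1-4 4.19 ± 3.32% and 5.14 ± 1.49%. TRBJ1-5 held 4.65 ± 7.18% and 2.02 ± 0.479% of counts, with 20.4% in WT TET 2. TRBJ1-2 made up 8.12 ± 3.76% of serine clonotypes in WT TET and 8.74 ± 0.566% in mutant TET, against 4.37 ± 0.595% and 4.84 ± 0.313% in CD8. TRBJ1-5 made up 5.72 ± 2.87% and 4.09 ± 0.983% against 2.12 ± 0.508% and 2.04 ± 0.601%. TRBJ1-4 made up 9.61 ± 2.38% in mutant TET and 3.32 ± 0.810% in WT TET, with CD8 at 5.51 ± 1.59% (WT) and 5.98 ± 0.662% (mutant), so the WT TET mean lay below both CD8 means.

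Ends of TRBJ2-1 (log2 fold change -0.57, SE 0.14, edgeR adjusted p = 0.0014), TRBJ2-5 (-0.46, SE 0.13, 0.004) and TRBJ2-7 (-0.43, SE 0.13, 0.0067) were lower in TET. TRBJ2-1 made up 2.78, 2.13 and 14.7% in WT TET and 5.51 to 10.2% in mutant TET against 11.04 to 13.02% in CD8, so WT TET 3 went against the direction. The TRBJ2-7 call was lost with DESeq2 (adjusted p = 0.070), without mutant TET 2 (edgeR adjusted p = 0.105) and without mutant TET 3 (edgeR adjusted p = 0.054), and the TRBJ2-5 call was lost without the filter on rare ends (edgeR adjusted p = 0.055). By counts TRBJ2-7 ends held 28.5 ± 10.5% in TET and 20.4 ± 3.87% in CD8, and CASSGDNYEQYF, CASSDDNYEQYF and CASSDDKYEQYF carry this end. The other 5 ends did not pass.

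Between the strains in TET, edgeR called 0 of 11 ends (0%), DESeq2 called 0, and 3 ends had an unadjusted p below 0.05. The 3 were TRBJ1-6 (log2 fold change 2.62, SE 0.99), TRBJ1-4 (1.51, SE 0.60) and the joint end of TRBJ2-3 and TRBJ2-4 (-0.81, SE 0.29), each with an edgeR adjusted p of 0.055. TRBJ1-6 was found at 2.78, 0 and 0% of serine clonotypes in WT TET and 5.51, 5.99, 5.59 and 3.39% in mutant TET. The joint end was found at 22.2, 34.0 and 26.5% in WT TET and 16.5, 14.8, 16.8 and 18.6% in mutant TET. Neither pair of groups overlapped. The groups also did not overlap for TRBJ1-4 (2.78 to 4.26% in WT TET, 6.78 to 12.6% in mutant TET) or TRBJ2-5 (8.33 to 8.82% and 5.51 to 8.10%). They overlapped for every other end. Calls numbered 2 with TMM factors, 2 without WT TET 1 and 3 without mutant TET 4. In CD8, edgeR called 0 of 11 ends (0%; 1 at an unadjusted p below 0.05; DESeq2 0), and 1 without WT CD8 1.

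The joint end TLYF was split by its last nucleotides, since TRBJ2-3 and TRBJ2-4 encode the same final residues. The ending accttgtacttt, on 1028 clonotypes, belonged to CDR3s that mostly end in NTLYF (958 of them), as TRBJ2-4 does. The ending acgctgtatttt, on 919 clonotypes, belonged to CDR3s that mostly end in ETLYF (889 of them), as TRBJ2-3 does. The TRBJ2-4 form made up 19.7 ± 6.98% of serine clonotypes in WT TET, 10.4 ± 3.96% in mutant TET, 9.03 ± 0.331% in WT CD8 and 9.32 ± 1.63% in mutant CD8. By counts it ranged from 17.0 to 41.7% in WT TET and 4.69 to 70.3% in mutant TET, against 7.79 to 11.8% in CD8. The TRBJ2-3 form held 0.0228 to 9.69% of TET and 6.42 to 10.4% of CD8 serine counts, and the TRBJ2-4 form, the end of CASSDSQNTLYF, held more counts than it in each TET library.

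**Figure D4:**
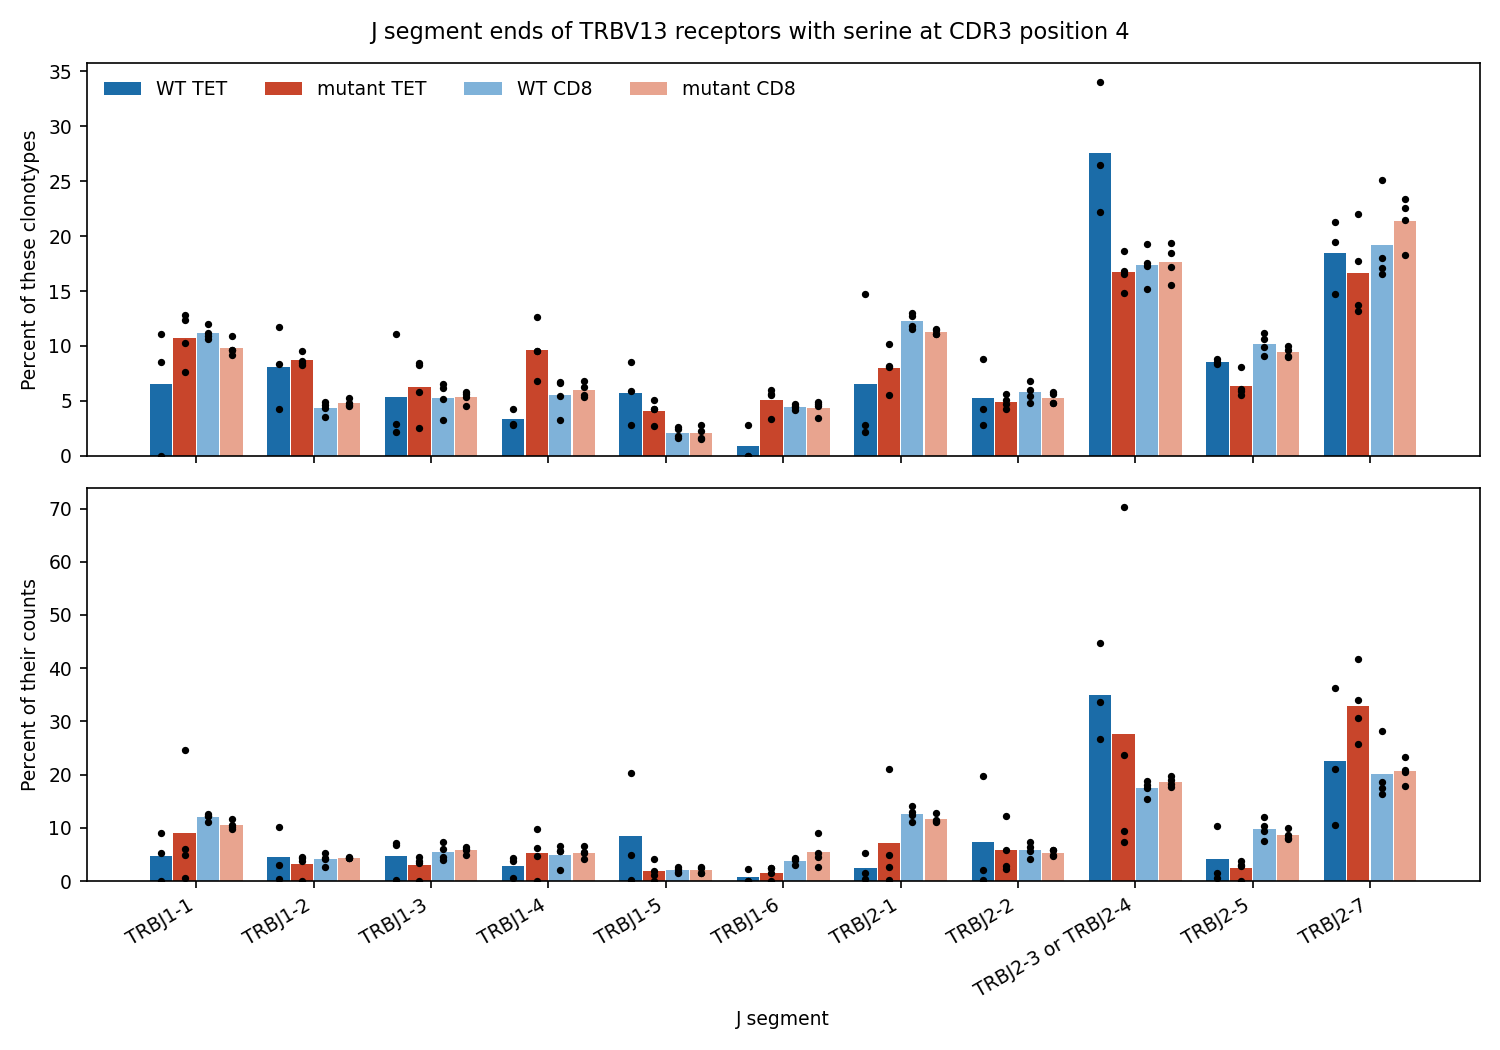
Percent of serine clonotypes (upper panel) and of their counts (lower panel) by J segment, named from the CDR3 end; bars are group means and points are libraries of WT TET (n = 3), mutant TET, WT CD8 and mutant CD8 (n = 4 each). TRBJ1-2 and TRBJ1-5 bars of TET are above those of CD8 in the upper panel, and the joint TRBJ2-3 or TRBJ2-4 bar is highest in WT TET, at 27.6%.

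Aspartate was the commonest residue at position 5, after the serine, and its share of clonotypes differed between TET and CD8 by less than the spread between libraries. It was found in 5458 of 11053 clonotypes and was encoded by GAT in 4344 of these. The V match reached on average into this codon, and how much of the aspartate was V-encoded was not tested. Aspartate took 50, 61.7 and 55.9% of serine clonotypes in WT TET and 52.8, 41.7, 46.2 and 44.1% in mutant TET. The CD8 libraries ranged from 46.6 to 53.3%. The difference between fractions was 0.869 points (exact permutation p = 0.735), and that between strains in TET was -9.69 points (exact permutation p = 0.0857), with overlap. The CD8 strains differed by 0.729 points (exact permutation p = 0.657).

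Other residues at this position differed between the fractions. With edgeR, 4 of 15 residues (26.7%) were called, glutamate lower in TET and glycine, arginine and valine higher. Glutamate, like aspartate an acidic residue, fell by 0.40 on the log2 scale (SE 0.12, edgeR adjusted p = 0.0062), with 8.06 ± 3.49% in WT TET and 11.6 ± 2.51% in mutant TET against 15.4 ± 0.968% and 15.4 ± 1.95% in CD8. Arginine, a basic residue, rose by 0.75 (SE 0.24, edgeR adjusted p = 0.0074), with 6.38 ± 3.91% and 3.71 ± 0.920% against 1.85 ± 0.621% and 2.20 ± 0.396%. Valine rose by 0.76 (SE 0.23, edgeR adjusted p = 0.0062) and glycine by 0.37 (SE 0.11, edgeR adjusted p = 0.0062). Aspartate had a log2 fold change of -0.11 (edgeR adjusted p = 0.152).

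The glutamate call held in all settings tried, and the other calls did not. DESeq2 called 1 residue, glutamate, and adjusted p-values of 0.060 for arginine, 0.060 for valine and 0.337 for glycine missed the threshold. Without mutant TET 2, which held the most TET clonotypes, edgeR called 2 (glycine adjusted p = 0.134, valine 0.120), and without WT TET 2 and mutant TET 4 it called 3 (arginine adjusted p = 0.105). Between the strains 0 of 9 residues (0%) were called in TET and 0 of 15 (0%) in CD8, with 1 unadjusted p under 0.05 in each and 0 calls in DESeq2.

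**Figure D5:**
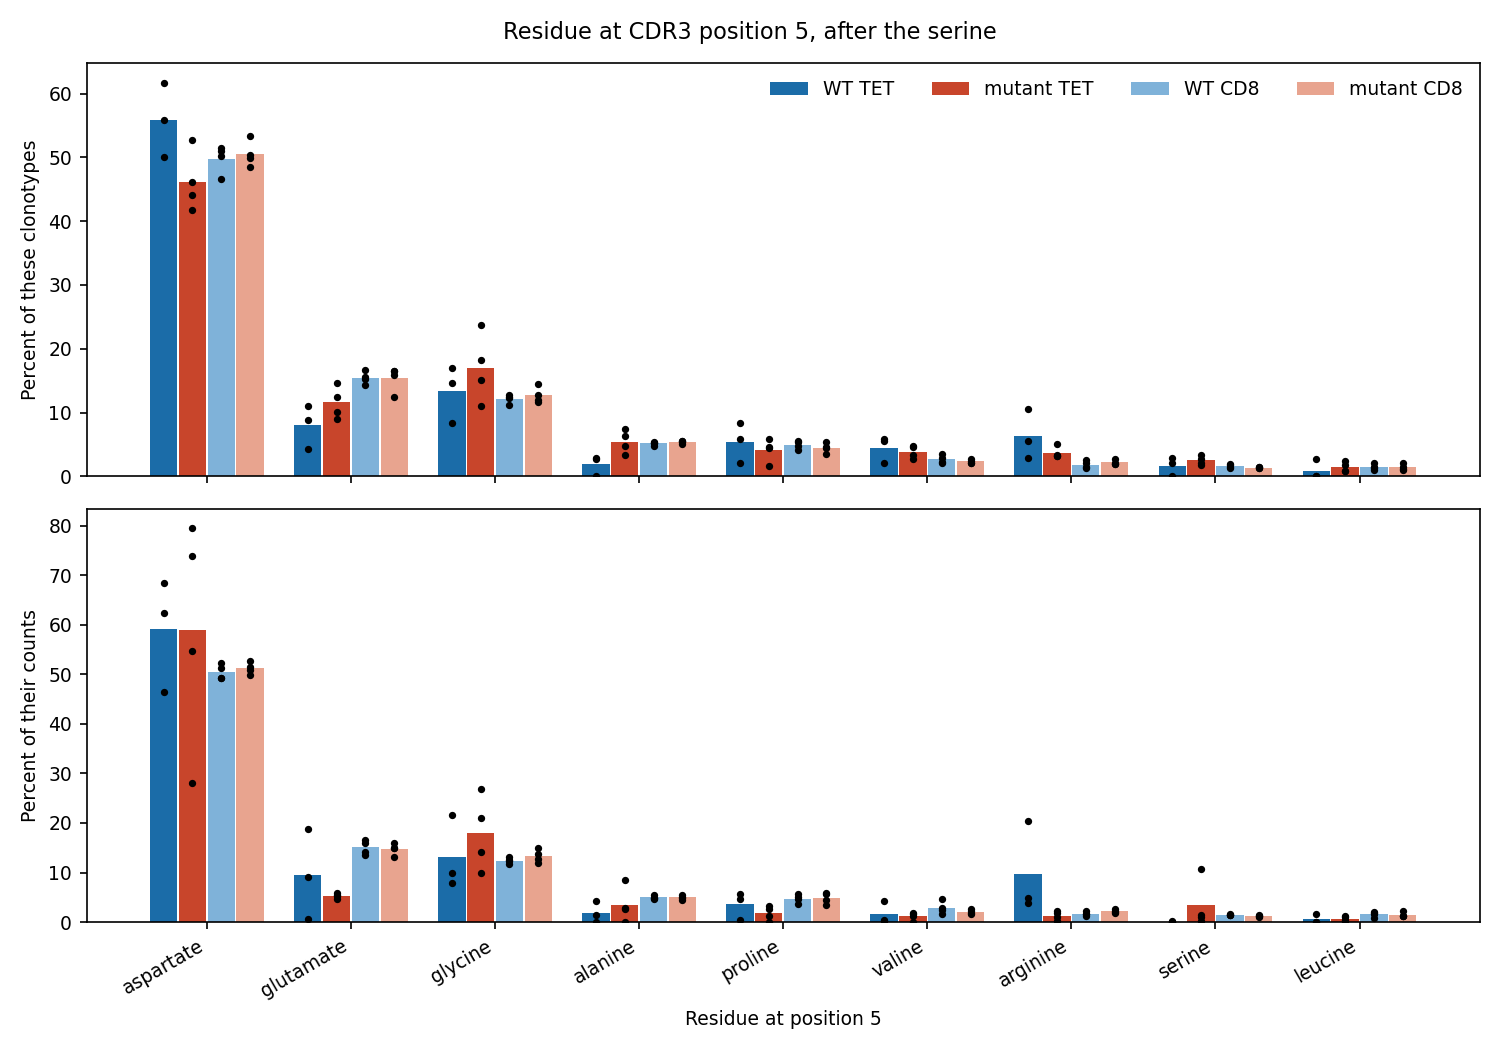
Percent of serine clonotypes (upper panel) and of their counts (lower panel) with each of the 9 commonest residues at CDR3 position 5; bars are group means and points are libraries of WT TET (n = 3), mutant TET, WT CD8 and mutant CD8 (n = 4 each). Glutamate is lower in both TET groups than in CD8 in the upper panel, and the aspartate points of TET spread from 28.0 to 79.5% by counts.

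The residues at positions 5 and 6 of the most widespread TET receptors were then followed in all libraries by counts. Aspartate-serine, aspartate-aspartate and glycine-aspartate together held 38.7, 49.1 and 11.7% of serine counts in WT TET. In mutant TET they held 44.7, 19.5, 27.6 and 62.7%. CD8 libraries held 6.38 to 11.9% in WT and 5.57 to 6.57% in mutant mice, so the lowest TET library, WT TET 3, was just below the highest CD8 library, WT CD8 1. These pairs were chosen from the leading TET receptors after their values were seen, so a high TET share follows in part from the choice, and no test was made. By clonotypes they made up 8.82 to 25.5% in WT TET, 4.90 to 14.4% in mutant TET and 5.76 to 9.39% in CD8.

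Aspartate at position 6 held 4.20, 24.2 and 9.10% of serine counts in WT TET and 35.2, 30.5, 28.2 and 30.2% in mutant TET. The CD8 libraries held 6.47 to 10.1%. All mutant TET libraries were therefore above all other libraries, while the WT TET libraries spread around the CD8 range. Threonine at position 6 went the other way, with 0.0622 to 7.28% of TET and 8.38 to 12.6% of CD8 serine counts. Both residues were picked with the values of position 6 known, and no test was made. Aspartate there is also part of the aspartate-aspartate and glycine-aspartate pairs, so its TET share follows in part from the leading receptors. Receptors of 12 residues with one of the 3 pairs held 38.5, 44.7 and 9.10% in WT TET, 42.9, 17.9, 25.8 and 46.3% in mutant TET and 0.730 to 5.86% in CD8, of which WT CD8 1 was the highest.

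Beside TRBV13 receptors with the CASG start, the serine receptors differed in the CD8 libraries. TRBJ1 made up 33.7 ± 3.05% of serine and 27.9 ± 3.01% of CASG clonotypes (n = 8), and the serine share was higher in 8 of 8 libraries (difference 5.81 points, exact permutation p = 0.00781, the smallest possible, adjusted p = 0.0344). Their CDR3 was longer by 0.216 residues, again in 8 of 8 libraries (exact permutation p = 0.00781, adjusted p = 0.0344). In TET neither passed (TRBJ1 -2.66 points, exact permutation p = 0.516; length -0.113 residues, exact permutation p = 0.734), with the serine value higher in 3 of 7 libraries for both. Whether the contrast differed between TET and CD8 was not tested. Weighted by counts, the length difference in TET was -0.699 residues (exact permutation p = 0.0469, outside the adjusted tests). It was -0.535 without WT TET 2 and mutant TET 4 (exact permutation p = 0.0625, the smallest that 5 libraries allow). With 1 library left out it passed only without WT TET 2 (-0.890 residues, exact permutation p = 0.0312), and was -0.789 to -0.372 residues without each of the others (exact permutation p of 0.0625 to 0.0938).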

How the data were processed

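Per the labels' protocols, TCRβ cDNA carrying 9-nt unique molecular identifiers was made by template switching, amplified by nested PCR and sequenced on a MiSeq. Each library's table, as the authors deposited it, gives a whole-number count to every nucleotide CDR3; whether reads or identifiers were counted is not stated, so intervals cover counting error only. The deposited fraction is that count over a library total, of which the tables held 94.2 to 99.2%, per the file headers and values. Which aligner, caller and build were used is not given in the sources used here. No coordinates are printed.

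Shares were computed from counts after leaving out 4 alpha-chain entries (6 counts). J segments were named from the CDR3 end and compared with segment lengths in RefSeq (GRCm38.p6 gene table). The named receptors were the largest of each TET library, those in at least 5 TET libraries, the 10 highest TET means, and the highest CD8 means among the most widespread. Members, lists and tests were chosen with earlier results of these data known. Exact permutation tests (two-sided, 22 in all) compared library values, with TET and CD8 reassigned within strain. A result passes at exact p under 0.05 and is then read beside its adjusted p. Clonotype tables (features with at least 20 clonotypes) were tested with edgeR 4.0.16, each clonotype counted once, library size the clonotype number, adjusted p under 0.05, and with DESeq2 1.42.0. The computations were tested on simulated data. TET and CD8 libraries that share strain and number were treated as the same mouse, because the design names 4 mice per strain; V class deviations of same-numbered libraries correlated with r of -0.450 to 0.386. Between strains a number is only a name.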

Additional observations from a re-analysis of the deposited data

Results flagged for a closer look

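In groups of 4 libraries, values far from the other 3 were sought with Dixon's ratio of gap to range. For normally distributed values, chance marks about 1 in 20 groups, and many receptors were examined. A receptor seen in only 1 of the 4 libraries is always marked, so that rate does not hold for such receptors. Mutant TET 4 stood apart from the other mutant TET libraries in the serine share of TRBV13 clonotypes (64.1%, others 56.7 to 57.7%), in the TRBJ1 share (33.9%, others 48.8 to 50.2%) and in mean CDR3 length (13.4 residues, others 13.9). It also stood apart for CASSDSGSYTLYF (13.1% of counts), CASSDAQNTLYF (9.48%) and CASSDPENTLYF (9.90%), which no other mutant TET library held, and for the 15-residue receptor with a TRBJ2-2 end (2.18%, others 0 to 0.283%).

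WT CD8 1 had a shorter mean CDR3 (13.7 residues, others 13.9) and more of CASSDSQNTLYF (0.169% of counts, others 0) and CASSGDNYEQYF (1.00%, others 0 to 0.00824%) than the other WT CD8 libraries. In mutant TET 2, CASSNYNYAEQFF was at 10.8% (others 0.0565 to 0.387%) and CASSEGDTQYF at 0.0134% (others 0). In mutant TET 3, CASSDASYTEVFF was at 10.8% (others 0.0535 to 0.141%) and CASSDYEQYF at 0.00455% (others 0).

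Low levels in a single CD8 library of a group were found for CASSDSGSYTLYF (0.00304%) and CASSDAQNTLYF (0.0304%) in mutant CD8 4, for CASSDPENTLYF in WT CD8 4 (0.0247%) and mutant CD8 3 (0.0081%), and for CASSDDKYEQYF (0.0648%) and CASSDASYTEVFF (0.0729%) in mutant CD8 3. They rest on 1, 10, 6, 2, 16 and 18 counts, in this order. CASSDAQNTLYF in mutant CD8 4 had another nucleotide version than in mutant TET 4.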

How the results depend on the processing

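Of 206 values of the comparisons under other settings, 184 were counted as unchanged, as were 271 of 300 with 1 library left out. For exact tests, unchanged means the same direction and side of the threshold. For edgeR tables it means an equal or similar number of calls, whichever features were called. The 3 shares in TET against CD8 passed under all of them. The lower serine share of mutant TET clonotypes did not: it was -6.75 points without single counts, -0.331 by counts, -7.52 with the most frequent start codons only, and -1.98 at equal depth, none passing. It was -9.30 without WT TET 2 and mutant TET 4, -10.0 with the replicate number as a block and -10.0 to -8.26 with 1 library left out, designs too small to pass.

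Differences that passed no main test changed sign as follows. By counts, TRBJ1 gave -8.10 (fractions), -3.44 (strains, TET) and 1.01 (strains, CD8) points and length -0.308 residues (strains, TET), while length between fractions (-0.724, and -0.485 without the pair, added after seeing the data) and against CASG in TET (-0.699) passed. The count share between strains in TET was 0.307 points without single counts and 1.29 without clonotypes at 10 times the count elsewhere. Aspartate between fractions was -0.825 points without the latter and -0.240 without the pair.

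With 1 library left out, ranges that crossed 0 or the threshold were -0.679 to 0.383 points (serine share of TRBV13, CD8 strains), -5.99 to 5.21 (count share, TET strains), 2.37 to 7.60 and -2.75 to 0.575 (TRBJ1, fractions and CD8 strains), -0.591 to 2.33 and -0.340 to 1.40 (aspartate, fractions and CD8 strains). For length they were -0.280 to -0.0637 residues (fractions), -0.0186 to 0.414 (TET strains) and -0.200 to 0.0657 (against CASG, TET). Calls numbered 0 to 1 (V classes, TET strains), 2 to 5 (position 5, fractions), 0 to 3 (J ends, TET strains) and 0 to 1 (J ends, CD8 strains).

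Calls moved to 2 V classes between TET strains and 1 position 5 residue between fractions with DESeq2. For J ends between TET strains they moved to 2 with TMM factors, 1 without single counts and 3 with the replicate block; the block by mouse or number changed no other call. The causes were not tested beyond the settings' own construction. The WT TET libraries hold 34 to 47 serine clonotypes each, which limits every WT TET share by clonotypes.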
